A study of Mus musculus with 12 samples.

Results

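The genes described here code for the ephrin, netrin and Slit axon guidance systems: 8 ephrins, 11 Eph receptors, 2 netrins, 5 netrin receptors (Dcc and the Unc5 genes), 3 Slits and 3 Robo receptors. They were listed by name and family, with earlier results of these data known. The expression table, of 14801 genes, held all 32 of them. The table came from primary cultures of mouse cerebral cortex, in which neurons grow with astrocytes and other glia. Cells were taken from 6 wild-type fetuses at gestational day 17.5 and kept for 9 days in culture, with the medium supplement B27 withdrawn for the last 24 h. Each fetus, called mouse 1 to 6 below, gave 1 culture that received 10 nM T3 (triiodothyronine, the active thyroid hormone) for 24 h and 1 that did not, so the study has 6 libraries per group and T3 and no T3 are compared within each mouse. Every culture carried the same genotype, supplement withdrawal and culture age, and the model is that of mixed cells outside the animal.

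These systems steer growing axons, migrating neurons and forming synapses. Ephrins sit in the membrane of 1 cell and bind Eph receptor tyrosine kinases on its neighbour. A-class ephrins are held by a lipid anchor and mostly bind EphA receptors, while B-class ephrins span the membrane, mostly bind EphB receptors and can signal back into their own cell. Netrins are laminin-related secreted proteins that attract axons through Dcc and repel them through the Unc5 receptors. Slits are large secreted proteins that repel axons and neurons through the Robo receptors. In the cerebral cortex they take part in layering, in the crossing of callosal axons and in the growth of dendritic spines, and T3, through its nuclear receptors, is needed for normal maturation of the same tissue.

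The libraries held 5272092 to 10837895 reads in genes, and 1 read was worth 0.0911 to 0.186 CPM (read counts scaled to library size, on the authors' TMM scale, which corrects for differences in composition between libraries). Within each of the 6 mice, more reads came from the culture with T3 (1.03 to 1.67 times as many). Hr, a classical direct target of T3, stood at 5.49 ± 1.24 CPM (SD, n = 6) without T3 and 46.5 ± 2.92 with T3. Heart muscle markers summed to 1213 CPM in the culture of mouse 4 without T3 and to at most 6.89 in the other 5 without T3, and markers of mural cells and fibroblasts to 292 against at most 58.3. That library stood apart, so changes that rest on it are given with and without mouse 4, while levels per kilobase include it. A change was called where the adjusted p of limma, fitted on all 13663 genes that passed a filter on low values with the mouse as a block, was under 0.05.

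All 32 guidance genes passed that filter. With T3, 6 of them rose (Epha3, Epha4, Ephb1, Ephb2, Ephb6 and Robo2), 6 fell (Efnb2, Unc5c, Unc5d, Slit2, Slit3 and Robo1) and 20 did not pass the test. That is 37.5% called, against 5.52% of all genes tested (3.37% higher and 2.14% lower). Since the genes were listed with earlier results known, this share and those below are descriptions only. The changes were small: the called genes that rose were 1.22 to 1.58 times higher, and those that fell were 1.22 to 1.39 times lower. The median size of the log2 change was 0.22 over the 32 genes and 0.08 over all genes tested, with medians of the signed change of 0.03 and 0.00. In bulk RNA, fewer cells of a type and less RNA per cell cannot be told apart.

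By role, the genes that rose were all receptors. Of 13 ligands, 0 rose, 3 fell and 10 did not pass the test, with a median log2 change of -0.03. Of 19 receptors, 6 rose, 3 fell and 10 did not pass, with a median of 0.13. Of the 6 that rose, 5 were Eph receptors and 1 was a Robo. At an unadjusted p under 0.05 in limma, 7 more genes would pass: Efna5, Efnb3 and Unc5b lower, and Epha5, Ephb3, Ntn4 and Robo3 higher. The share of all genes tested that pass this looser rule was not counted, so these counts are descriptions only. By that looser rule 0 ephrins or Slits were higher, 0 of the 11 Eph receptors were lower and 0 netrin receptors were higher, and with the block edgeR, DESeq2 and limma-voom also called none of the 20 genes at an adjusted p under 0.05. Whether ligands and receptors differ was not tested, since the genes of a family are not replicates. The 6 T3 values and the 6 values without T3 did not overlap for 4 of the 32 genes (Epha4, Ephb1, Ephb2 and Unc5d), against 1.68% of all genes tested. The change had 1 direction in all 6 mice for 12 of the 32, against 10.8%.

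**Figure D1:**
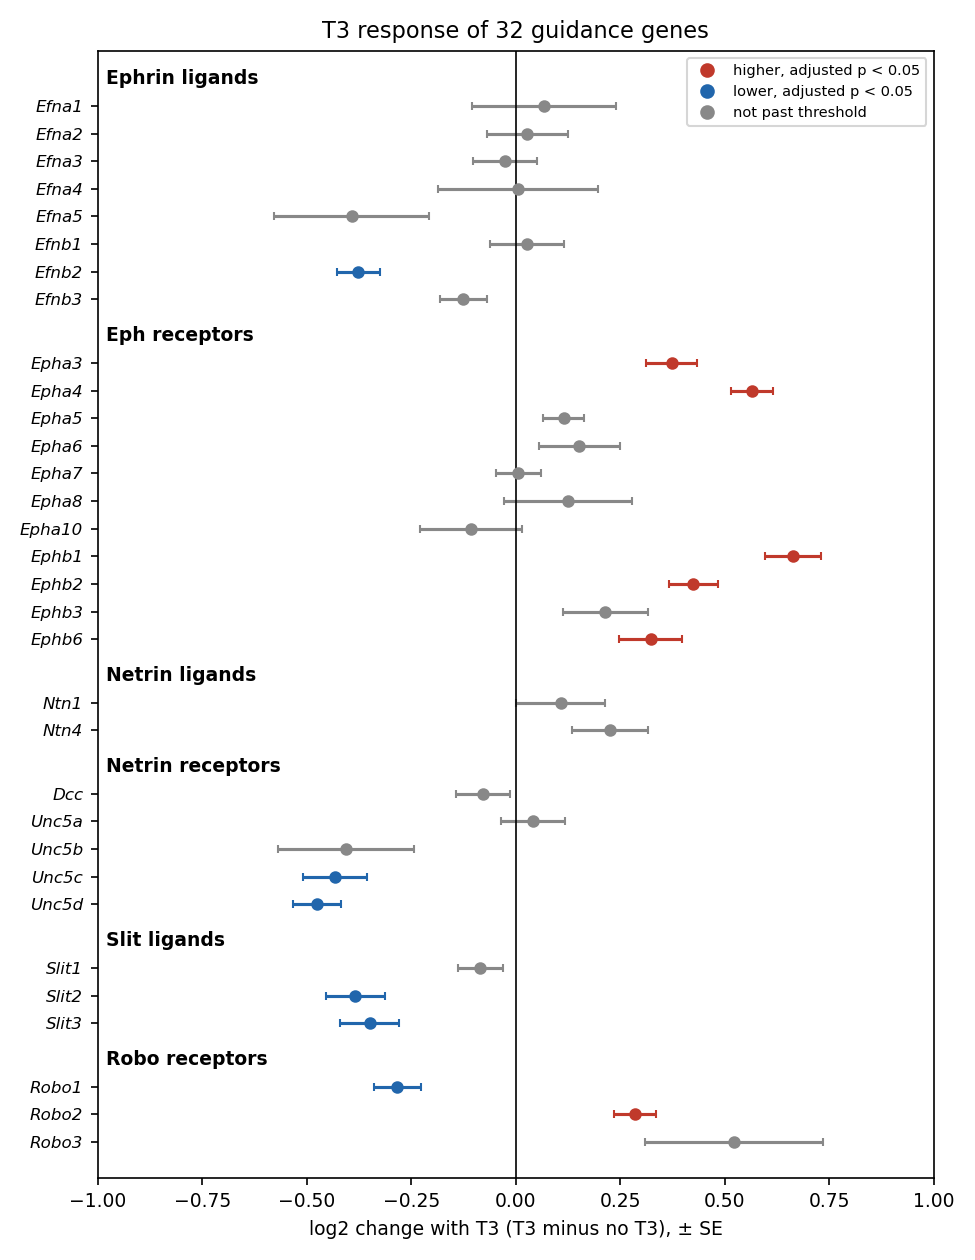
Log2 change with T3 (T3 minus no T3) of the 32 guidance genes by family, with the standard error of limma's paired fit, n = 6 mice. Red points are the 6 genes called higher, blue the 6 called lower and grey the 20 not called. The called genes lie between -0.48 (Unc5d) and 0.66 (Ephb1), and the wide bar at 0.52 is Robo3, which rests on 3 to 16 reads per library.

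Levels in the cultures without T3 spanned a wide range. They are compared between genes as CPM per kilobase of the gene's longest coding transcript, as mean ± SD of 6 cultures. Efnb3, a B-class ephrin of forebrain neurons, was the most abundant of the 32 at 131 ± 10.3. Efnb2 followed at 42.9 ± 5.57, with a range that overlapped that of the receptor Epha4. The A-class ephrins lay lower: Efna3 stood at 17.7 ± 2.04 and Efna2 at 6.85, while Efna4, Efna1 and Efna5 lay between 0.994 and 1.56 with overlapping ranges. Among the receptors Epha4 (36.8 ± 2.78) and Epha5 (34.1 ± 1.58) were the most abundant, and their ranges overlapped. Epha3 (17.5), Ephb6 (14.1), Epha7 (11.1), Ephb2 (10.1) and Ephb1 (6.74) followed, and Epha8, Epha6, Epha10 and Ephb3 lay between 2.90 and 3.99.

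The secreted cues and their receptors showed other orders. Ntn4 stood at 5.11 and Ntn1 at 2.96 CPM per kilobase. Unc5a (13.4) and Unc5d (13.2) were alike, Unc5c stood at 7.89, Dcc at 5.15 and Unc5b at 3.44, a mean raised by mouse 4 (6.83). Slit1 (19.1) was above Slit2 (7.08) and Slit3 (6.77) in every culture. Robo1 (18.8) and Robo2 (16.6) were close, and Robo3, which marks commissural neurons of the hindbrain and spinal cord, was near the limit of detection at 0.197. The length of a gene's transcripts in these cells is not known, and with all annotated exons as the length Slit2 stood at 2.77, Unc5c at 3.98, Epha5 at 14.9, Epha3 at 11.4, Epha10 at 1.20, Robo1 at 8.59 and Robo2 at 8.37. With that length Epha4 was above Epha5, at 28.9 CPM per kilobase, and close to Efnb2 at 30.0. Other orders changed too: Ephb6 (14.0) was above Epha3, Ephb2 (8.77) above Epha7 (7.60), Slit3 (5.83) above Slit2 and Dcc (4.04) just above Unc5c.

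**Figure D2:**
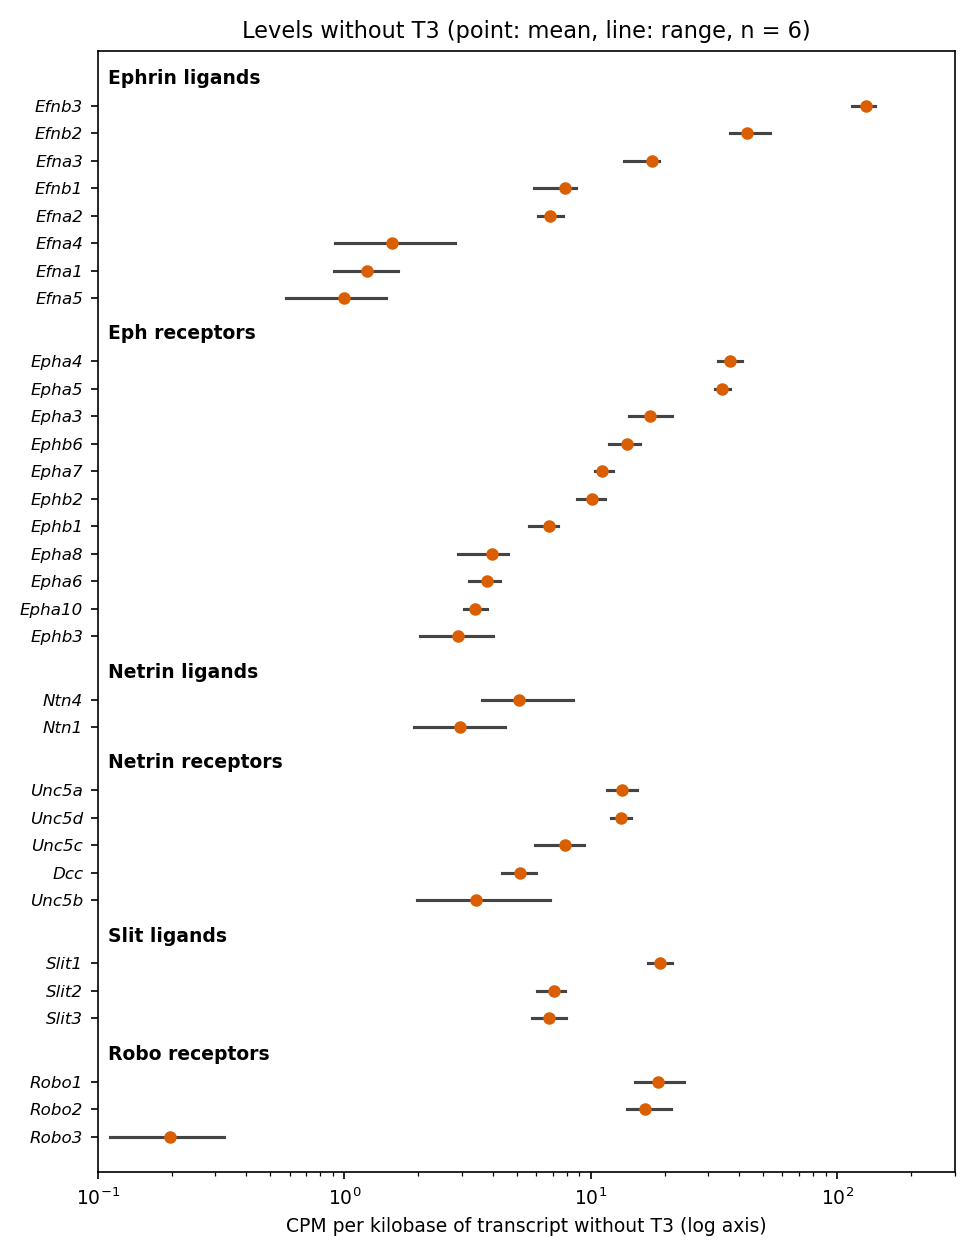
Level of each guidance gene in the 6 cultures without T3, in CPM per kilobase of its longest coding transcript, on a log axis and ordered within each family. Points are means and lines run from the lowest to the highest culture. Efnb3 at 131 leads the ephrins, Epha4 and Epha5 overlap at the head of the receptors, and Robo3 lies lowest at 0.197.

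The Eph receptors were the family with the most genes higher with T3. Of the 11 in the set, 5 rose, 0 fell and 6 did not pass the test, and 10 of the 11 had a fitted change above 0, with a median log2 change of 0.21. By class, 2 of these 7 EphA receptors rose (median 0.13) and 3 of these 4 EphB receptors rose (median 0.37). A further 2 Eph receptors were measured but belong to the list of related genes given below, and neither passed: Epha2 gave 0.31 (limma adjusted p = 0.321; 1.48 to 5.64 CPM over all libraries) and Ephb4, the receptor of venous endothelium, gave -0.12 (limma adjusted p = 0.904). Ephb4 stood at 12.2 CPM in mouse 4 without T3 and at 1.55 to 6.06 in the other 5 without T3, and without mouse 4 its change was 0.23 (limma adjusted p = 0.655). Whether the classes differ was not tested.

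Epha4, a receptor that binds ephrins of both classes and restrains axons and dendritic spines, changed with the smallest p of the 32. It lies on chromosome 1 from 77367185 to 77515088 on the minus strand (GRCm38, as all positions here). Its lowest, median and highest values were 207, 231 and 260.0 CPM without T3 and 339, 343 and 352 with T3. Every T3 culture was above every culture without T3, and the T3 values lay close together (SD 4.52, against 17.6 without T3). The log2 change was 0.56 ± 0.050 (SE; limma adjusted p = 3.38e-07), with the higher value in 6 of 6 mice.

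Ephb1, a receptor of B-class ephrins known from the sorting of retinal axons at the optic chiasm, had the largest change. It lies on chromosome 9 from 101922128 to 102354693 on the minus strand. Its values ran from 26.2 through a median of 32.6 to 34.3 CPM without T3, and from 47.2 through 50.2 to 52.2 with T3. The groups did not overlap, and the lowest T3 culture was well above the highest without T3. Its fitted log2 change was 0.66 ± 0.067 (limma adjusted p = 2.29e-06), a fold of 1.58. A gene on the opposite strand covers 2.17% of its exons, and the reads carry no strand.

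Ephb2, which clusters with NMDA receptors at excitatory synapses, lies on chromosome 4 from 136647539 to 136835988 on the minus strand. It ran from 96.3 through 112 to 124 CPM without T3 and from 128.5 through 149.5 to 163 with T3 (medians in the middle). Again the groups did not overlap, though mouse 1 with T3 (128.5) came close to mouse 6 without T3 (124). In limma's fit the log2 change was 0.42 ± 0.058 (limma adjusted p = 8.28e-05). Epha8 lies 93.4 kb away on the same strand, and its log2 change was 0.13 (limma adjusted p = 0.75).

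Epha3, which binds A-class ephrins, lies on chromosome 16 from 63543534 to 63864175. It ran from 81.2 through 97.8 to 121 CPM without T3 and from 104 through 134.5 to 151 with T3. The ranges overlapped, since mice 1 and 5 were low in both cultures, but the T3 value was the higher one in 6 of 6 mice. This gave a log2 change of 0.37 ± 0.061 (limma adjusted p = 0.000581), and without the pairing the adjusted p was 0.136.

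Ephb6, a receptor whose kinase domain is inactive, lies on chromosome 6 from 41605482 to 41620509. It stood at 44.6 to 59.9 CPM (median 52.2) without T3 and 55.1 to 77.3 (median 66.3) with T3. The value was higher with T3 in mice 2 to 6 and lower in mouse 1 (59.9 without, 55.1 with). The paired log2 change was 0.32 ± 0.075 (limma adjusted p = 0.0127), the highest p among the 12 called. It was the called gene that lost its call most often over the alternatives tried: leaving out mouse 3, 4, 5 or 6 gave adjusted p values of 0.0658, 0.0521, 0.0537 and 0.0577, and dropping the pairing gave 0.0992.

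The 6 other Eph receptors of the set did not pass the test. Epha5, the partner of Epha4 in level, was higher with T3 in 6 of 6 mice by a small amount, 249.6 ± 11.6 CPM without T3 and 270.4 ± 17.5 with T3 (log2 change 0.11, limma adjusted p = 0.231). Epha7, which helps set cortical maps, gave 0.01 (adjusted p = 0.978), and its T3 values spanned only 73.8 to 76.1 CPM against 70.5 to 82.7 without T3. Ephb3 gave 0.21 (adjusted p = 0.281), Epha6 0.15 and Epha10 -0.11. For Epha8 the mice went both ways, from -0.68 in mouse 1 to 0.82 in mouse 5.

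The ephrins, the ligands of these receptors, mostly did not pass the test: 0 of 8 rose, 1 fell and 7 did not pass, with a median log2 change of -0.01. The 1 that fell was Efnb2, the B-class ephrin that in the brain is made by neurons, glia and arterial endothelium. It lies on chromosome 8 from 8617434 to 8661242 on the minus strand. Its lowest, median and highest values were 175, 202 and 255 CPM without T3 and 126, 161 and 177 with T3. Only the top of the T3 range (mouse 6, 177) reached the bottom of the other (mouse 1, 175), and the value fell in 6 of 6 mice. The log2 change was -0.38 ± 0.051 (limma adjusted p = 7.74e-05). Without the pairing the adjusted p was 0.0518.

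Efnb3, the most abundant ephrin, stood at 418 ± 32.8 CPM without T3 and 383 ± 21.5 with T3, a log2 change of -0.13 that did not pass (limma adjusted p = 0.248). Efnb1, the X-linked B-class ephrin, gave 0.03 (adjusted p = 0.926). None of the 5 A-class ephrins passed the test in limma. Efna1, Efna2, Efna3 and Efna4 lay between -0.03 and 0.07, and Efna5, at 2.19 to 5.94 CPM over all libraries, gave -0.39 (adjusted p = 0.278). Genes on the opposite strand cover 14.1% of the exons of Efna3 and 10.5% of those of Efna4, whose reads cannot be told apart from theirs.

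Levels per kilobase were also summed by class. The 7 EphA receptors summed to 111 without T3 and 137 with T3 (CPM per kilobase, means of 6), the 4 EphB receptors to 33.8 and 45.3, A-class ephrins to 28.3 and 27.9 and B-class ephrins to 182 and 161. The EphA and EphB sums were higher with T3 in 6 of 6 mice, and the B-class ephrin sum, most of it Efnb3, was lower in 5 of 6. The ratio of the 11 Eph receptors to the 8 ephrins was 0.688 ± 0.0330 without T3 (range 0.665 to 0.752) and 0.966 ± 0.04998 with T3 (range 0.890 to 1.03). The ranges did not overlap. The ratio is built from the changes above, of genes called and not called, so no test was made of it. Its value depends on the transcript lengths.

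To show what lies upstream of the called genes of the ephrin system with the smallest p, 100 bases are printed for Epha4, Ephb1, Ephb2 and Efnb2, from the RefSeq promoter windows on GRCm38.p6, read 5′ to 3′ on the gene's strand. The windows of Epha4 (chr1:77515089-77515188) and Ephb1 (chr9:102354694-102354793) end at the base before the start of transcription. Those of Ephb2 (chr4:136836136-136836235) and Efnb2 (chr8:8661393-8661492) lie 223 to 124 and 250 to 151 bases upstream, where each holds a GGGTCA match. Capitals mark that match, a variant of the short motif AGGTCA that thyroid hormone receptors and other nuclear receptors bind, which in Efnb2 is on the opposite strand (TGACCC).
Epha4: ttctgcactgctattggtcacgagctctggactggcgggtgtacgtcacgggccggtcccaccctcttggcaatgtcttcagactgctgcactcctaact
Ephb1: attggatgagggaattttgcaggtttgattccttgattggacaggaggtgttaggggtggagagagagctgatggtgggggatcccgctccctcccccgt
Ephb2: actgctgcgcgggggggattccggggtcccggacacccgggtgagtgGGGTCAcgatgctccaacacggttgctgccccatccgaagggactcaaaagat
Efnb2: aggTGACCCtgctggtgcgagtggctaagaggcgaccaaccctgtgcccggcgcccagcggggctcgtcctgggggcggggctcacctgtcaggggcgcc

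Over the 250 bases upstream of each start, searched on both strands, windows were at hand for 27 of the 32 genes (not for Efnb3, Ntn1, Dcc, Unc5d and Slit1), 11 of them called. The motif AGGTCA was in 1 of the 27 (Ntn4) and in 15.8% of 27025 genes. GGGTCA was in 3 (Efnb2, Epha10 and Ephb2), against 13.1%. The direct repeat of AGGTCA with a spacer of 4 bases, the classical element of thyroid hormone receptors, was in 0 of the 27 and in 0.0148% of all genes. The GC box GGGCGG was in 19 of the 27, against 35.4%, and TATAAA in 2 (Efnb2 and Slit2), against 14.3%. The windows were rich in G and C (median 65.8%, against 52.4% over all windows). A match is a description of the letters and not a binding site, and elements farther away were not searched.

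**Figure D3:**
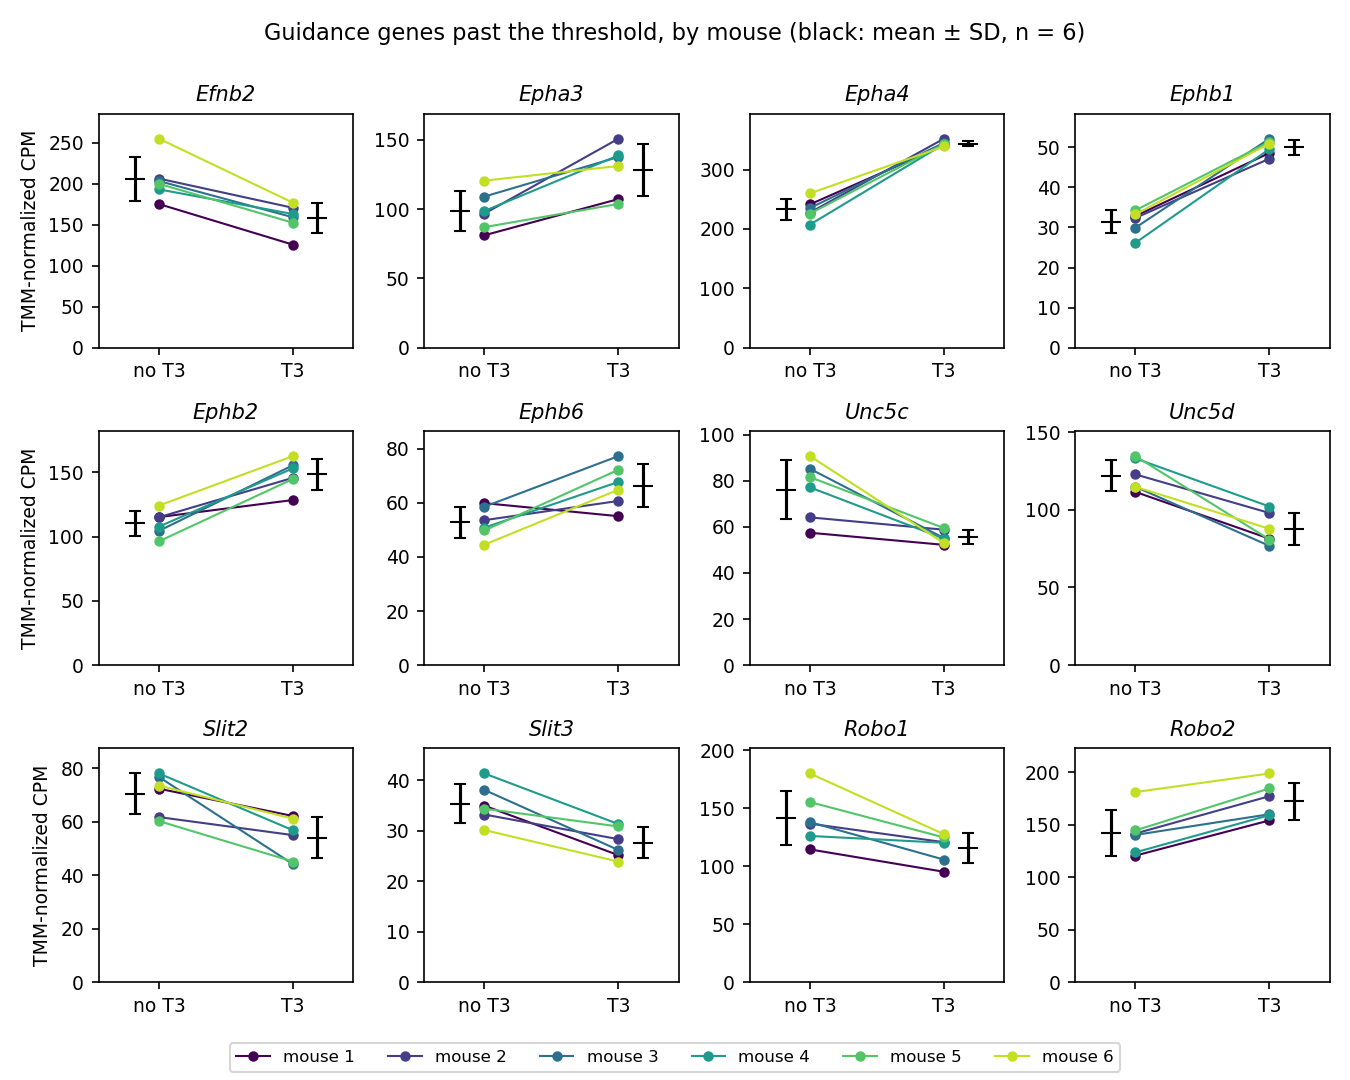
Expression (TMM-normalized CPM, axes from 0) of the 12 called guidance genes without and with T3, 1 line per mouse, with mean ± SD of 6 cultures in black beside each group. Epha4, Ephb1, Ephb2 and Unc5d show groups that do not overlap, and Ephb6 has 1 line, mouse 1, that runs against the other 5.

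In the netrin system the ligands did not pass the test and part of the repellent receptors fell. Ntn1, the founding netrin, stood at 11.3 to 26.4 CPM without T3 and 12.9 to 25.3 with T3 (log2 change 0.11, limma adjusted p = 0.679). Its value was lower with T3 only in mouse 4 and higher with T3 in the other 5, and without mouse 4 the change was 0.25 (adjusted p = 0.155). Ntn4, a netrin of basement membranes, gave 0.23 (adjusted p = 0.186), the smallest p among the genes that were not called. Both its cultures of mouse 1 were the highest of their group, at 31.0 without T3 and 37.2 with T3.

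Of the 5 netrin receptors, 0 rose, 2 fell and 3 did not pass. Unc5d, which in the cortex marks late-born neurons of the upper layers while they migrate, lies on chromosome 8 from 28646717 to 29219636 on the minus strand. Its values ran from 112 through a median of 119 to 135 CPM without T3 and from 76.8 through 84.6 to 102 with T3. The groups did not overlap. Its fitted log2 change was -0.48 ± 0.058 (limma adjusted p = 1.95e-05).

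Unc5c, a receptor that mediates repulsion by Ntn1, lies on chromosome 3 from 141465216 to 141834924 on the plus strand. It ran from 57.5 through 79.4 to 90.8 CPM without T3 and only from 52.2 through 55.05 to 59.5 with T3. The fall was small in mice 1 and 2, which were lowest without T3, and larger in mice 3 to 6, and the T3 cultures lay within a narrow band. In limma's fit the log2 change was -0.43 ± 0.076 (limma adjusted p = 0.00133), lower in 6 of 6 mice.

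Dcc, the attractive receptor, gave -0.08 (limma adjusted p = 0.599), with 45.1 to 61.8 CPM without T3 and 46.7 to 52.7 with T3. Unc5a gave 0.04 (adjusted p = 0.849). Unc5b, which is also made by endothelium, gave -0.41 (adjusted p = 0.216), and its value without T3 in mouse 4 was 40.1 against 11.6 to 19.6 in the other 5. In that library the summed markers of heart muscle, and those of mural cells and fibroblasts, were high. The second sum had its highest values in the collagens Col3a1 (111 CPM), Col1a2 (66.4) and Col1a1 (62.2). Of the mural cell markers, Pdgfrb (9.65) was below mouse 1 without T3 (9.83), while Rgs5 (4.64) was above the other 5 (0.770 to 2.16). The 3 endothelial markers in the table summed to 32.1 CPM in that library and to 5.86 to 23.8 in the other 5 without T3. Of these, Pecam1 (9.65, against 1.27 to 1.89) and Flt1 (6.12, against 0.514 to 2.16) were highest in mouse 4, while Kdr was highest in mouse 1 (20.9, against 16.3 in mouse 4). The part of these cells in the Unc5b value was not tested. Without mouse 4 the change of Unc5b was -0.22 (adjusted p = 0.355). The 4 Unc5 genes summed to 38.0 CPM per kilobase without T3 and 31.6 with T3, lower in 6 of 6 mice.

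In the Slit system 2 of 3 ligands fell and the 2 abundant receptors moved in opposite directions. Slit2 lies on chromosome 5 from 47983138 to 48307733 on the plus strand. Its lowest, median and highest values were 60.3, 73.0 and 78.1 CPM without T3 and 44.2, 56.0 and 62.2 with T3. The ranges overlapped at the 2 lowest cultures without T3 (mice 2 and 5), and the value fell in 6 of 6 mice. This gave a log2 change of -0.38 ± 0.071 (limma adjusted p = 0.00191).

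Slit3 lies on chromosome 11 from 35121224 to 35708507 on the plus strand. It ran from 30.2 through 34.7 to 41.4 CPM without T3 and from 23.9 through 27.3 to 31.4 with T3, lower in 6 of 6 mice. Its log2 change was -0.35 ± 0.071 (limma adjusted p = 0.00392). Slit1, the most abundant of the 3 per kilobase, gave -0.08 and did not pass (adjusted p = 0.467), and its value without T3 was 96.9 to 121 CPM. Without the pairing the adjusted p was 0.0665 for Slit2 and 0.0675 for Slit3.

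Robo1 and Robo2, receptors of the same Slits that are close in sequence, lie on chromosome 16 with their 3′ ends facing each other, 0.846 Mb apart (Robo1 from 72308306 to 73046095 on the plus strand, Robo2 from 73891839 to 74411825 on the minus strand). Robo1 stood at 115, 137 and 180 CPM (lowest, median, highest) without T3 and 95.3, 120.5 and 128 with T3. Robo2 stood at 121, 141 and 181 CPM without T3 and 154, 169 and 199 with T3. The ranges overlapped for both genes, with mouse 6 highest and mouse 1 lowest throughout. Within each mouse, Robo1 fell and Robo2 rose in 6 of 6. The paired log2 change was -0.28 ± 0.057 for Robo1 (limma adjusted p = 0.0037) and 0.28 ± 0.051 for Robo2 (limma adjusted p = 0.00133). These calls rest on the pairing, and without it the adjusted p was 0.263 and 0.194. Robo3, with 3 to 16 reads per library, gave 0.52 (adjusted p = 0.192) and was not detectably changed at this depth.

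The ratio of Robo2 to Robo1 within a library was higher with T3 in every mouse. Per kilobase it was 0.885 ± 0.0383 without T3 (range 0.82 to 0.928) and 1.31 ± 0.0878 with T3 (range 1.17 to 1.43). The groups did not overlap, and the ratio was 1.35 to 1.59 times higher with T3 in the 6 mice. The sum of the 3 Robo genes was 35.5 ± 5.499 without T3 and 35.7 ± 3.49 with T3, higher in 4 mice and lower in 2. The ratio of Robo2 to Robo1 is built from called genes, so no test was made of it.

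**Figure D4:**
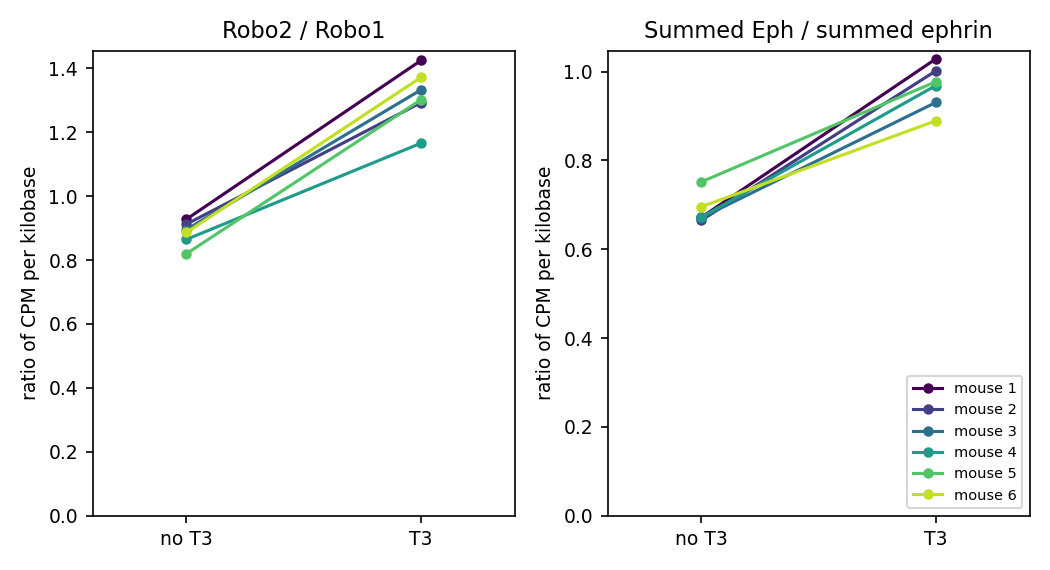
Ratio of Robo2 to Robo1 and of summed Eph receptors to summed ephrins, each from CPM per kilobase within a library, 1 line per mouse, axes from 0. Every line is higher with T3, from 0.82 to 0.928 up to 1.17 to 1.43 for the Robo pair and from 0.665 to 0.752 up to 0.890 to 1.03 for the Eph to ephrin ratio.

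The 100 bases before the RefSeq starts of Robo1 (chr16:72663049-72663148, the start of a shorter transcript inside the gene) and Robo2 (chr16:74411826-74411925) are printed because this pair moved in opposite directions. The second is 1 of 3 starts that RefSeq gives for Robo2. Neither gene has either of the nuclear receptor motifs, or the GC box, in its windows of 250 bases.
Robo1: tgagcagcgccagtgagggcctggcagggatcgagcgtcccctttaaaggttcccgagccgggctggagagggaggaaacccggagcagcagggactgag
Robo2: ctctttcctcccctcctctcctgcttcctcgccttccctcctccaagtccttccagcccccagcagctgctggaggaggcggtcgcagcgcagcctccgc

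The size of the change varied between mice. All 12 called genes moved in the called direction in mice 2 to 6, and 11 of 12 in mouse 1, with Ephb6 the exception. Over all 32 genes, mouse 1 had the lowest change for 11 and the highest for 0, with a median of -0.15. The same median was 0.14 in mouse 4, which had the highest change for 11 genes. The changes of mouse 4 use its culture without T3, the library with high heart muscle markers and the fewest reads. The part of that library in them was not tested. Over all 13663 genes tested the median change lay between -0.01 and 0.02 in the 6 mice, and 21.5% of genes had their lowest change in mouse 1. The highest change was in mouse 1 for 18.3% of these genes and in mouse 4 for 18.2%. The 11 genes lowest in mouse 1 included 4 of the ephrins (Efna2, Efna3, Efnb1 and Efnb3) and 3 of the 4 EphB receptors (Ephb2, Ephb3 and Ephb6).

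**Figure D5:**
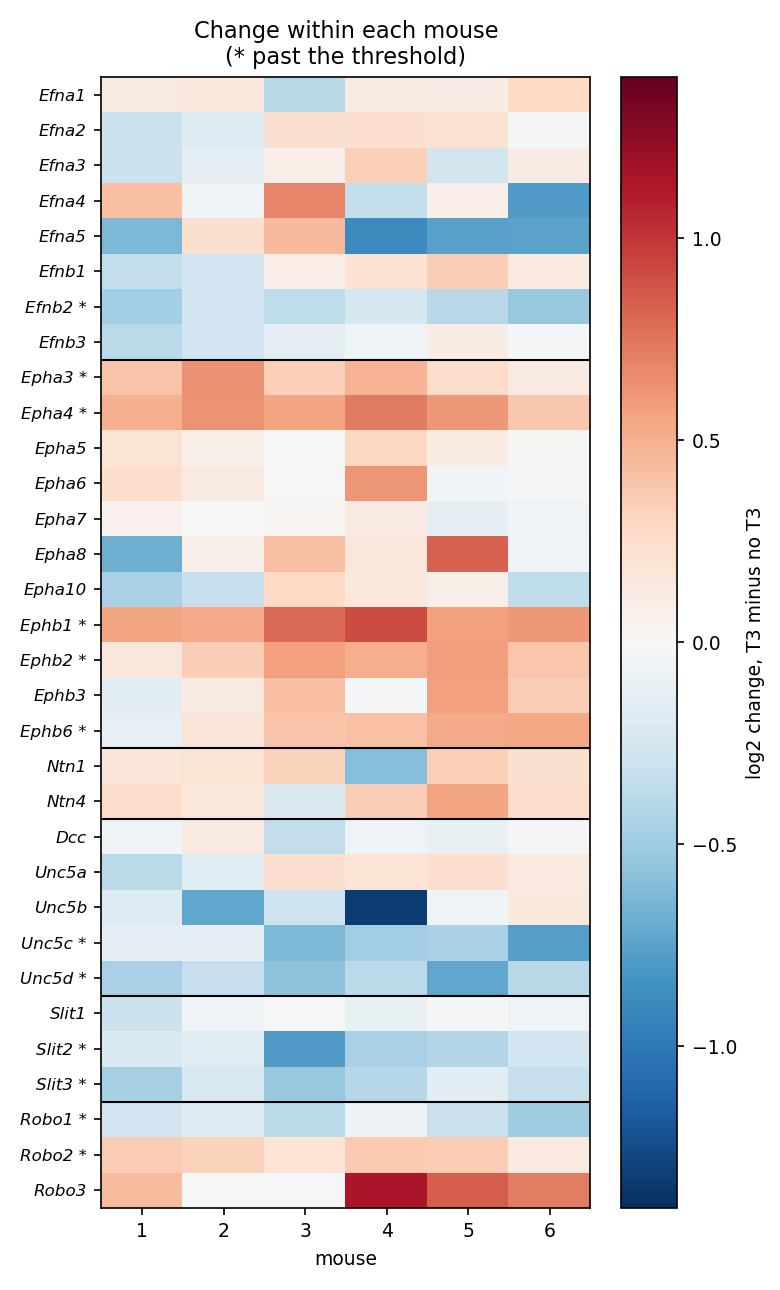
Log2 change with T3 within each of the 6 mice for the 32 guidance genes, red for higher and blue for lower with T3, with an asterisk for the 12 called genes. Rows of 1 colour, such as Epha4, Ephb1, Unc5d, Slit3 and Robo2, show a direction shared by all mice, and the column of mouse 1 holds the lowest change for 11 genes.

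Genes that work with these systems were read from a list of 76 co-receptors, regulators and signalling partners. Of these, 72 were tested, and Epha1, Ntn3, Ntn5 and Robo4 were not found by symbol in the expression table. With T3, 6 rose and 4 fell, 13.9% against 5.52% of all genes tested, and 62 did not pass, with a median log2 change of -0.01. Among surface proteins, Rgma, a membrane-anchored repellent that binds the netrin receptor homologue neogenin, stood at 96.1, 108 and 122 CPM (lowest, median, highest) without T3 and 126, 154 and 170 with T3, with no overlap (log2 change 0.47 ± 0.070, limma adjusted p = 0.000314). The FLRT proteins bind Unc5 receptors and latrophilins. Flrt2 went from 85.1 ± 9.75 to 70.3 ± 4.23 CPM, a log2 change of -0.27 (adjusted p = 0.00855), and Flrt3 gave -0.33 (adjusted p = 0.00571). The latrophilin gene Adgrl2 went from 213.5 ± 5.42 to 184 ± 11.01 CPM, a change of -0.22 (adjusted p = 0.014). The values of Flrt2 and of Adgrl2 did not overlap between the groups.

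Inside the cell, Chn1, the Rac inhibitor alpha-chimaerin that acts behind Epha4, went from 105 ± 8.54 to 136 ± 8.08 CPM with no overlap (log2 change 0.37, limma adjusted p = 0.000129). Antisense genes cover 11.8% of its exons. Pak1, a kinase activated by Rac and Cdc42, went from 261 ± 16.2 to 332 ± 19.8, also with no overlap (0.35, adjusted p = 0.00019). Vav2, an exchange factor recruited by Eph receptors, gave 0.23 (adjusted p = 0.0126), the myosin Myo10 0.25 (adjusted p = 0.0434) and the actin regulator Evl 0.20 (adjusted p = 0.0479). Pak3 fell, with -0.24 (adjusted p = 0.0155). Evl lost its call in 8 of the 15 alternatives tried, Myo10 in 6, Pak3 in 4 and Adgrl2 in 2. Flrt2 and Flrt3 each lost theirs in 1, the fit without the pairing (adjusted p = 0.0992 and 0.138). Neogenin (Neo1, 0.11, adjusted p = 0.208), Dscam (0.12, adjusted p = 0.253), the ephrin-cleaving protease Adam10 (0.13, adjusted p = 0.16) and Ntng1 (-0.03, adjusted p = 0.938) did not pass.

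Markers of other cell types moved between the groups. Of 7 tested astrocyte markers, 4 rose and 0 fell, and their sum, 813 to 2741 CPM without T3 and 1229 to 3205 with T3, was higher with T3 in 6 of 6 mice, highest in mouse 1 and lowest in mouse 6. Of 8 oligodendrocyte lineage markers, 3 rose and 0 fell, and the sum (346 to 500.4 and 449 to 565) was higher in 6 of 6 mice. Of 6 markers of dividing cells, 3 fell, and the sum (106.5 to 249 and 82.1 to 114) was lower in 6 of 6. The 249 is the culture of mouse 4, and the highest of the other 5 without T3 was 152. Of 6 pan-neuronal markers, 1 rose and 0 fell, and the sum (6538 to 8539 and 6145 to 7545) was higher with T3 in only 1 of 6 mice. Of 6 excitatory neuron markers 2 fell, and their sum was higher with T3 in 2 of 6 mice. Of 6 inhibitory neuron markers 1 fell, Sst (log2 change -0.31, limma adjusted p = 0.0319). The others did not pass and went both ways: Gad1 gave -0.19, Dlx2 0.01, Dlx1 0.07, Gad2 0.17 and Slc32a1 0.25. The median of the 6 was 0.04, and their sum was higher with T3 in 2 of 6 mice. Of 6 mural cell and fibroblast markers 1 fell, Dcn (-0.47, limma adjusted p = 0.00806, lower in 6 of 6 mice). Microglial markers summed to 2.64 to 8.16 CPM without T3 (at most 5.12 without mouse 4) and 3.55 to 6.24 with T3. The microglial sum rests on 4 of 6 listed markers, and the heart muscle and endothelial sums on 3 of 6 each. The mural cell and fibroblast sum rests on 6 of 7. The missing markers, among them Cldn5, Cdh5 and Tek of endothelium, were not found by symbol in the expression table. The part of the marker shifts in the changes of the guidance genes was not tested. Without mouse 4, 3 astrocyte, 2 oligodendrocyte lineage and 0 pan-neuronal markers rose. In the same fit 3 markers of dividing cells, 2 of excitatory neurons, 1 of inhibitory neurons and 1 of mural cells and fibroblasts fell. Of the guidance genes, 5 rose and 6 fell without mouse 4, with Ephb6 the call that was lost. The culture of mouse 4 without T3 had high sums of heart muscle and of mural cell and fibroblast markers.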

How the data were processed

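RNA from 12 cultures was sequenced as single reads on a Genome Analyzer IIx without strand marking, per the labels' protocols. The submitters' processing notes name CASAVA, FastQC, TopHat, Bowtie, HTSeq, edgeR and the build GRCm38. The table deposited by the authors holds a normalized signal per gene, CPM after TMM scaling, per its values, with column sums from 969044 to 1044783. Divided by the value of 1 read, 100.0% of values were whole (within 0.01 read), so whole reads were recovered. Every gene of the table reached 1 CPM in at least 2 libraries, and 14648 of 14801 identifiers had a symbol.

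The main test was limma 3.58.1 (R 4.3.3; trend, robust) on log2(CPM + 0.5), with the mouse as a block, over 13663 genes kept by edgeR's filterByExpr, two-sided, with Benjamini-Hochberg adjustment and a threshold of 0.05. Fold changes are on the log2(value + 0.5) scale. Alternatives were other pseudocounts (1 and 0.1), no filter, RLE scaling, no TMM factor, edgeR 4.0.16 and DESeq2 1.42.0 on the recovered reads, limma-voom, no block, and each mouse left out. Levels per kilobase used the longest coding transcript of GENCODE M21, and the length of all exons was an alternative chosen after seeing the data. A share or level of 0 would allow up to 3 reads, 0.273 to 0.557 CPM, which covers counting error only. The script was tested on simulated data.

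The pairing comes from the labels, which say that the cells of 1 fetus gave both cultures. Deviations of the 2 cultures of a mouse from their group means correlated with r from 0.237 to 0.638, the median over other pairs was -0.106, and the own partner was the best match for 6 of 6 mice. The 32 genes and the lists were chosen with earlier results of these data known, so they are described by counts and no test was made over them. The text names all 32 genes, the related genes that passed the threshold with Neo1, Dscam, Adam10, Ntng1 and Flrt2, and Hr. Epha2, Ephb4 and the single cell type markers named were chosen after their values were seen, as were the refits of the marker lists and of these receptors without mouse 4.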

Additional observations from a re-analysis of the deposited data

Results flagged for a closer look

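In groups of 6 samples, a value was set aside for a closer look where its gap to the nearest other value, as a share of the whole range, exceeded Dixon's critical value. Of 138 such groups (levels without T3, levels with T3 and changes per mouse, for the guidance genes and the related genes named), 8 had such a value, and chance gives about 1 in 20. None of the 12 called guidance genes was among them.

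Mouse 4 gave 3 of the 8. Without T3 its culture had 40.1 CPM of Unc5b, against 11.6 to 19.6 in the other 5, and 32.3 CPM of Efna3, against 41.2 to 44.9. Its log2 change of Ntn1 was -0.59, against 0.17 to 0.34. The culture of mouse 4 without T3 is the one with 1213 CPM of heart muscle markers, whose part in these values was not tested.

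Mouse 1 gave 2. Ntn4 stood at 31.0 CPM without T3, against 13.2 to 18.8 in the other mice. Among the 6 cultures without T3, that one also had the highest sums of astrocyte (2741 CPM) and oligodendrocyte lineage markers (500.4). The endothelial marker Kdr (20.9) and the mural cell marker Pdgfrb (9.83) were highest there too, while the sums of their lists were highest in mouse 4. The part of any of these cells in the Ntn4 value was not tested. The log2 change of Slit1 was -0.30, against -0.10 to 0.01. In mouse 3 the log2 change of Efna1, which has 10 to 23 reads per library, was -0.39, against 0.11 to 0.28. Of the related genes, Vav2 stood at 80.6 CPM without T3 in mouse 3, against 69.0 to 73.1, and Pak3 at 344 CPM with T3 in mouse 2, against 282 to 302.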

How the results depend on the processing

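The 12 called genes kept their direction in all 180 refits and their call in 169. The 11 lost calls fall on 7 genes: without the replicate block on Efnb2, Epha3, Ephb6, Slit2, Slit3, Robo1 and Robo2, and without mouse 3, 4, 5 or 6 on Ephb6. Epha4, Ephb1, Ephb2, Unc5c and Unc5d were called in each of the 15 alternatives. With the block, edgeR, DESeq2 and limma-voom each called 6 higher and 6 lower. Without the replicate block, 3 of the 32 were called higher and 2 lower, over all genes 125 higher and 53 lower (461 and 293 with it), and of the related genes 1 lower. Leaving out each mouse gave 304 to 526 genes higher and 155 to 328 lower over all genes, the lowest counts without mouse 3 (304 and 155) and 191 lower without mouse 5. It gave 2 to 5 related genes lower, with 2 without mouse 3 or mouse 6. For all of these the cause was not tested.

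Small changes that did not pass turned sign. For Efna4 (0.01) the change was -0.00086 with a pseudocount of 1, -0.035 in edgeR, -0.0081 in DESeq2 and -0.057 in limma-voom, and for Epha7 (0.01) it was -0.0010 in DESeq2 and -0.00035 in limma-voom. Leaving out 1 mouse gave ranges of -0.013 to 0.093 for Efna2, -0.097 to 0.029 for Efna3, -0.13 to 0.17 for Efna4, -0.037 to 0.10 for Efnb1, -0.015 to 0.031 for Epha7, -0.014 to 0.29 for Epha8 and -0.12 to 0.062 for Ntng1. Robo3 could not be fitted without mouse 3, where the filter removed it, and had no adjusted p in DESeq2. Depth limits Robo3, Efna1, Efna4 and Efna5, with at most 39 reads in a library.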
